A study of Mus musculus with 6 samples.

Results

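Genes of mitosis and the kinetochore are described here in cultured primary mouse lung endothelial cells, with or without hydrogen peroxide (H2O2). The members are 44 genes chosen by name: kinetochore and centromere proteins, spindle checkpoint proteins, mitotic kinases, cyclins, kinesins, condensin subunits and cytokinesis proteins. They were chosen with earlier results of these data known, so their counts and medians beside those of all genes are a description only. The genes were matched by symbol, and all 44 were found among the 33006 gene symbols of the tables, and all 44 passed the filter on low counts that left 12924 genes tested. The cells came from the C57BL/6 strain and grew in an endothelial medium (EBM-2 with EGM-2 MV supplements). At 80% confluence they received water (control, 3 libraries) or 300 uM H2O2 (3 libraries), both for 6 hours, and no genetic change is named in the labels. The labels do not say whether the libraries of a group came from separate cultures or animals, so each p-value measures the spread between these libraries only, which may be technical.

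Mitosis is driven by Cdk1 with its cyclins and by the Polo and Aurora kinases. Chromosomes are condensed by condensin and topoisomerase II, and kinetochores built on centromeric chromatin attach them to spindle microtubules. The spindle checkpoint holds back the anaphase-promoting complex and its activator Cdc20 until every kinetochore is attached, after which cyclin B is destroyed and the cell divides. Transcripts of these genes are scarce in resting cells and build up in the G2 phase and mitosis, so their level in a culture is widely used as a sign of proliferation. Endothelial cells of the adult lung mostly rest, whereas cells in growth medium below confluence divide.

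The libraries held 22455388 to 27618679 gene counts. Normalised read counts below are CPM (gene counts scaled to a common library total, with TMM factors), and each change was tested with edgeR's quasi-likelihood test across all 12924 genes with Benjamini-Hochberg adjustment and a threshold of 0.05. Most endothelial markers were abundant: Pecam1 stood at 1019 CPM and Cdh5 at 1149 CPM in controls. Vwf stood lower, at 16.3 CPM in controls, and Cldn5 at 0.294 CPM. Of 12 endothelial markers, 11 were tested by edgeR, 4 rose and 0 fell (0 fell also at an unadjusted p under 0.05 and by DESeq2's test), where 9.70% of all genes tested rose and 10.8% fell, and their summed level was 4679 to 4774 CPM in controls and 4929 to 4962 CPM with H2O2. Most markers of other cell types were low. The exception was the leukocyte marker Cd68, at 159 CPM in controls, near the endothelial marker Tek (156 CPM). The leukocyte marker Cd14 stood at 7.05 CPM in controls and Csf1r at 0.645 CPM. The 6 fibroblast markers summed to 24.9 to 28.8 CPM over all libraries, most of it Dcn, and the 6 smooth muscle and pericyte markers to 5.55 to 6.81 CPM. The 8 leukocyte markers summed to 165 to 170.5 CPM in controls and 170.5 to 176 CPM with H2O2, nearly all of it Cd68, while Ptprc had a mean of 0 CPM in controls and Emr1 (now Adgre1) and Cd3e a mean of 0 CPM in both groups. The 6 epithelial markers summed to 0 to 0.193 CPM.

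With H2O2, 15 of the 44 genes rose and 3 fell, and 26 did not pass the test. Over all genes tested 9.70% rose and 10.8% fell. The rises were led by the kinetochore protein genes Cenpf (28.5% higher) and Cenpe (15.9% higher), the spindle pole gene Aspm (16.5% higher) and the proliferation marker Mki67 (14.8% higher). The kinase genes Plk1 and Aurka fell by 11.1% and fell by 8.33%, and the gene of the anaphase activator Cdc20 fell by 7.39%. The median log2 fold change of the 44 genes was 0.07, where that of all genes tested was -0.004, and 35 of the 44 fitted values were above 0. All 3 H2O2 libraries lay above all 3 controls for 21 of the 44 and below them for 5, against 16.5% and 18.2% of all genes tested. The count of 15 rises dropped to 9 when either control replicate 2 or control replicate 3 was left out. Rises over all genes dropped from 1254 to 891 and 962 in the same fits. The count of 3 falls dropped to 1 when either control replicate 2 or H2O2 replicate 2 was left out. Falls over all genes dropped from 1395 to 970 and 1190 in the same fits.

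**Figure D1:**
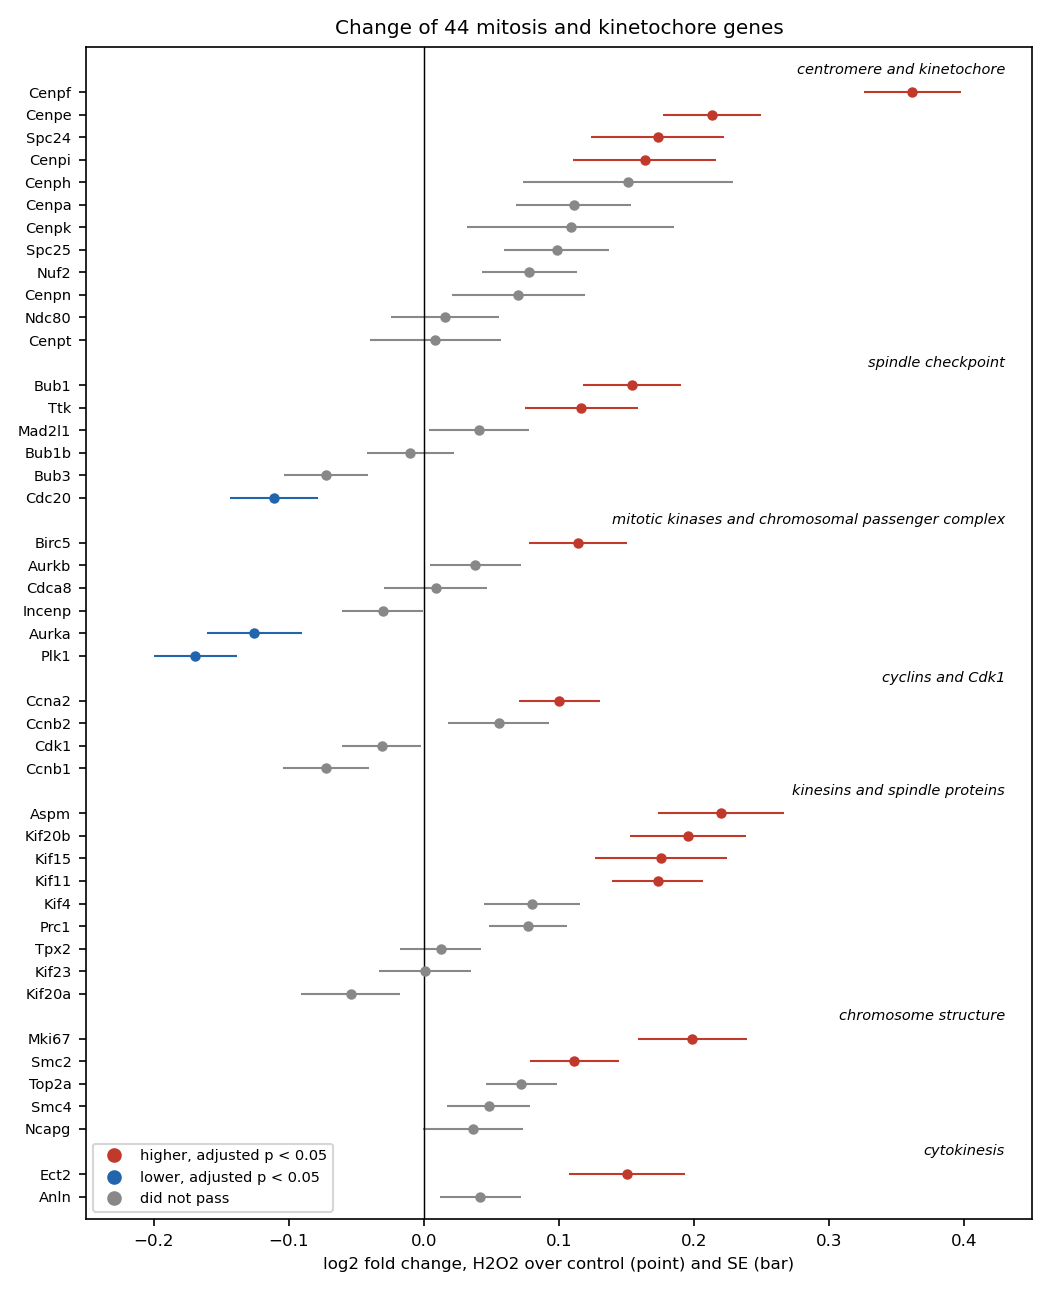
Fitted log2 fold change (H2O2 over control, horizontal axis) with its standard error (bar) for the 44 genes, grouped by role. Red points rose, blue points fell and grey points did not pass; all 12 centromere and kinetochore genes lie above 0, and the checkpoint and kinase groups are split.

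The summed level of the 44 genes was 7140, 6955 and 6951 CPM in control replicates 1 to 3 and 7421, 7300 and 7332 CPM in H2O2 replicates 1 to 3. Every H2O2 library was above every control, and the mean was 4.78% higher. The 44 genes took 0.691% to 0.717% of gene counts in controls and 0.729% to 0.740% with H2O2. By role, the summed level of the kinetochore genes was 12.2% higher and that of the chromosome structure genes 7.79% higher, whereas that of the kinase and passenger complex genes differed by -2.55% and that of the checkpoint genes by -0.518%. The summed level of the endothelial markers was 4.89% higher and that of the leukocyte markers 4.23% higher, and their part in the result was not tested. In bulk RNA, more cells in mitosis and more RNA per cell cannot be told apart.

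**Figure D2:**
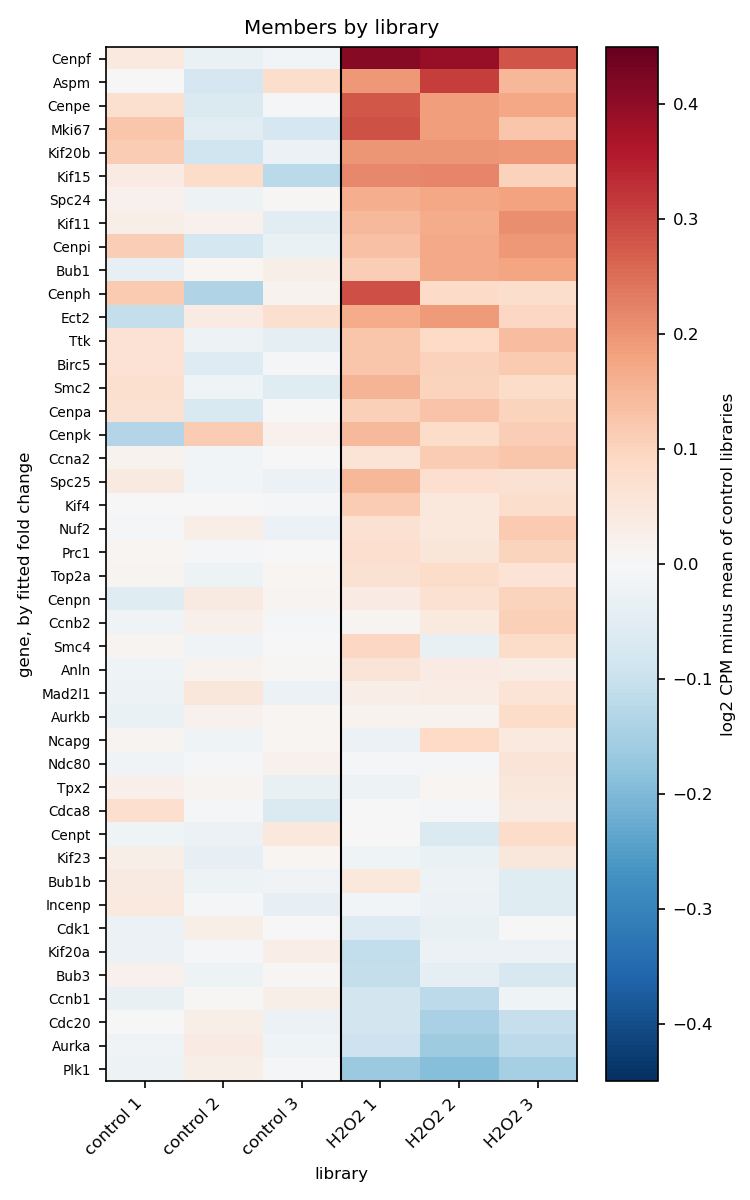
Log2 CPM of each of the 44 genes (rows, ordered by fitted fold change) in each of the 6 libraries (columns), minus the mean of the 3 control libraries. The rows from Cenpf to Spc25 are mostly red in all 3 H2O2 libraries, and the lowest rows (Ccnb1, Cdc20, Aurka, Plk1) are blue there.

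The promoters of the genes with the largest rises and of the 3 that fell are shown first, because mitotic genes are known to carry short promoter elements. One is the CCAAT box, bound by NF-Y. Another is the cell cycle genes homology region, bound by the MuvB complexes and most often written as TTTGAA; a variant of it is written as TTTAAA. Sequences are RefSeq promoters on GRCm38.p6, from 250 bases before to 50 bases after the start site, and 37 of the 44 members had an entry (not Spc24, Aurkb, Incenp, Ccna2, Kif20a, Tpx2 and Smc4). Each runs 5′ to 3′ on the strand of its gene, and capitals mark every match to CCAAT, to TTTGAA or to TTTAAA on either strand. They lie at chr1:189688037-189688336 (minus strand, Cenpf), chr3:135212313-135212612 (plus, Cenpe), chr1:139454523-139454822 (plus, Aspm), chr7:122159185-122159484 (plus, Plk1), chr2:172370521-172370820 (minus, Aurka) and chr4:118437294-118437593 (minus, Cdc20).
Cenpf: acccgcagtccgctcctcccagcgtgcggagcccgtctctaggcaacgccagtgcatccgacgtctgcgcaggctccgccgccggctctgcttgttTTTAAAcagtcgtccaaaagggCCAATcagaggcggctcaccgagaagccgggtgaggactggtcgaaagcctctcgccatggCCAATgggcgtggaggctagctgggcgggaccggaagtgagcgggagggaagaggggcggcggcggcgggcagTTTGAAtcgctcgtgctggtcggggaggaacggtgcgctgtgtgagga
Cenpe: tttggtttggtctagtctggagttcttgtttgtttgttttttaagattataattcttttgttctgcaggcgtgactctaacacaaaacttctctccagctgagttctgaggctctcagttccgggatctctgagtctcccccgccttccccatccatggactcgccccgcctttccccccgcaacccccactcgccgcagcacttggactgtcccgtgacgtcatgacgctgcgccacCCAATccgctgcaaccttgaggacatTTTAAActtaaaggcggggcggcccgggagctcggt
Aspm: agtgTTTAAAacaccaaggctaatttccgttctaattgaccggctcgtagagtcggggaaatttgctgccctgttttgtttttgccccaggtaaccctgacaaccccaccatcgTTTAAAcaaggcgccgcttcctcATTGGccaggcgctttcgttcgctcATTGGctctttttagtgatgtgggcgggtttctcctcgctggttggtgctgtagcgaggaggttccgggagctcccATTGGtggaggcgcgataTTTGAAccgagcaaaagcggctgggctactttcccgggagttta
Plk1: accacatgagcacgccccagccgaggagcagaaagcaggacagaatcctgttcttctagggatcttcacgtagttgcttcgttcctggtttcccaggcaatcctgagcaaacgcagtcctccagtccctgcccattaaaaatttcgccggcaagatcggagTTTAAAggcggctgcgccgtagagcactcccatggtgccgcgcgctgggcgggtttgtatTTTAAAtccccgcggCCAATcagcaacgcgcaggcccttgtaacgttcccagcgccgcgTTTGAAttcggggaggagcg
Aurka: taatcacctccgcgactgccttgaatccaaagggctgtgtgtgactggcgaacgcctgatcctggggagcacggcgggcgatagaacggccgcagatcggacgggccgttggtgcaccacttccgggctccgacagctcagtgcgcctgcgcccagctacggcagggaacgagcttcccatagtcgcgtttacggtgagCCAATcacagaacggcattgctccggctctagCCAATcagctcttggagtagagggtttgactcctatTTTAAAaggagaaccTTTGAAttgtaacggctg
Cdc20: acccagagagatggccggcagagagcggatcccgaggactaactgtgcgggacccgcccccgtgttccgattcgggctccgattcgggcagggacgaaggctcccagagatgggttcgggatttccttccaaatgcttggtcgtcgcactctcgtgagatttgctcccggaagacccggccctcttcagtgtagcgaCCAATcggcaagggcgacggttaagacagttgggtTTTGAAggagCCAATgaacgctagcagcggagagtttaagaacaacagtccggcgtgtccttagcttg

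Both kinds of element were found in genes that rose and in genes that fell. Positions are those of a match's leftmost base as printed, counted from the start site as 1. In Cenpf a TTTGAA match begins at position 3, with CCAAT boxes at -132 and -71, and in Aspm it begins at position 7, with CCAAT boxes at -113, -88 and -12. In Plk1 it begins at position 31 and the CCAAT box at -14, in Aurka at position 33 with CCAAT boxes at -51 and -19, and in Cdc20 at -18 with CCAAT boxes at -53 and -8. Cenpe has no TTTGAA in this window and a TTTAAA at position 15. Over the 37 members with an entry, 27 (73.0%) held a TTTGAA match, against 11.6% of the 9430 tested genes with an entry. Within 50 bases on either side of the start site these shares were 70.3% (26 of 37) and 2.88%. A CCAAT match was found in 78.4% of the members and 38.8% of tested genes, and a TTTAAA match in 10 of the 37 members and 8.69% of tested genes. A promoter with both a CCAAT and a TTTGAA was found in 62.2% of the members and 4.98% of tested genes. Companion genes, other genes of the same machinery described below, lay between these shares. Of the 133 with an entry, 34.6% held TTTGAA, 54.9% CCAAT, 11.3% TTTAAA and 24.8% both CCAAT and TTTGAA. A match describes letters only, each motif was counted on its own whether or not it overlapped another, and 1 entry per symbol was read.

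Of the 12 centromere and kinetochore genes, 4 rose and 0 fell by edgeR (0 also at an unadjusted p under 0.05, by DESeq2 and by limma-voom), all 12 fitted values were above 0, and the median log2 fold change was 0.11. The rises are 33.3% of the list, where 9.70% of all genes tested rose and 10.8% fell. Cenpf encodes a very large protein of the outer kinetochore that binds dynein regulators. It stood at 135, 128 and 130 CPM in control replicates 1 to 3 and at 174, 172 and 159 CPM in H2O2 replicates 1 to 3. The groups do not overlap, and the gap between them is wider than the range within either. From 131 ± 3.55 to 169 ± 7.97 CPM (SD, n = 3 each), the log2 fold change was 0.36 (SE 0.0358), with an adjusted p of 2.7e-08 in edgeR's quasi-likelihood test. It passed under all 16 alternatives run, with log2 fold changes of 0.34 to 0.40. Cenpf lies on chromosome 1 at 189640606 to 189688086 (mm10, GENCODE M21).

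Cenpe, the kinesin motor that carries chromosomes toward the spindle equator, lies on chromosome 3 at 135212537 to 135273611. It stood at 162, 147 and 154 CPM in controls and 187, 176 and 174 CPM with H2O2. The groups are again separate, with H2O2 replicate 1 highest. Its log2 fold change was 0.21 (SE 0.0363; adjusted p = 9.15e-05 by edgeR). Spc24, a subunit of the NDC80 complex that grips microtubules, rose by 0.17 on the log2 scale, and Cenpi, of the inner kinetochore, by 0.16. Spc24 did not pass without control replicate 2 (adjusted p = 0.059 by edgeR; 0.0076 to 0.059 over its alternatives). Cenpi did not pass without control replicate 2 (adjusted p = 0.18) or 3 (0.11), without H2O2 replicate 2 (0.059) or 3 (0.072), or by DESeq2's test (0.061); over all its alternatives the adjusted p was 0.0039 to 0.18.

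The partners of Spc24 in the NDC80 complex did not pass: Spc25 stood at 0.10, Nuf2 at 0.08 and Ndc80 at 0.02 on the log2 scale. Spc25 was the kinetochore member with the most reads per kilobase. It stood at 73.7, 71.1 and 70.4 CPM in controls and 79.6, 75.7 and 75.3 CPM with H2O2, so the groups do not overlap. Its adjusted p was 0.075 by edgeR, and it passed with upper-quartile factors (0.045) and without control replicate 1 (0.046), over a range of 0.045 to 0.29. Cenpa, the histone H3 variant that marks centromeres, stood at 0.11 (adjusted p = 0.066 by edgeR). It passed with upper-quartile factors (0.040), with an offset for length and GC (0.021) and without control replicate 1 (0.019), over a range of 0.018 to 0.32. The inner kinetochore genes Cenph (0.15), Cenpk (0.11), Cenpn (0.07) and Cenpt (0.01) did not pass. Cenph and Cenpk were the least abundant members, at 15.8 and 13.4 CPM over all libraries.

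Spindle checkpoint genes were split. Of 6 genes, 2 rose (33.3%) and 1 fell (16.7%), with a median of 0.02. The shares over all genes tested were 9.70% and 10.8%. Bub1, a checkpoint kinase that sits on kinetochores, rose by 0.15 (SE 0.0360; adjusted p = 0.0027 by edgeR), from 90.5 ± 2.01 to 101 ± 2.49 CPM (SD, n = 3 each). Ttk, the kinase that starts checkpoint signalling, rose by 0.12 with an adjusted p of 0.049 by edgeR. Ttk did not pass under 7 of 16 alternatives, among them the fits without control replicate 2 (0.17) or 3 (0.19) and without H2O2 replicate 1 (0.12) or 3 (0.12), DESeq2's test (0.098) and limma-voom (0.053), over a range of 0.018 to 0.19. The checkpoint effectors Mad2l1 (0.04), Bub1b (-0.01) and Bub3 (-0.07) did not pass.

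Cdc20, the activator of the anaphase-promoting complex that these effectors restrain, had the most reads per kilobase of this group. It stood at 146, 149 and 143 CPM in controls and 138, 132 and 136 CPM with H2O2. All 3 H2O2 libraries were below all controls. Its log2 fold change was -0.11 (SE 0.0326; adjusted p = 0.016 by edgeR). Cdc20 lies on chromosome 4 at 118432901 to 118437352, and exons of Elovl1 on the opposite strand cover 2.84% of its exon bases. It did not pass without control replicate 2 (adjusted p = 0.093 by edgeR) or H2O2 replicate 2 (0.081), over a range of 7.2e-04 to 0.093.

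Among the mitotic kinases and the chromosomal passenger complex, 1 of 6 genes rose (16.7%) and 2 fell (33.3%), with a median of -0.01. The shares over all genes tested were 9.70% and 10.8%. Plk1, the Polo kinase that promotes entry into mitosis, centrosome maturation and cytokinesis, had the largest fall of the 44. It stood at 185, 191 and 188 CPM in controls and 168, 165 and 170 CPM with H2O2. The groups are separate by more than the range within either. From 188 ± 3.06 to 167 ± 2.54 CPM (SD, n = 3 each) the log2 fold change was -0.17 (SE 0.0306; adjusted p = 1.9e-04 by edgeR), and it passed under all 16 alternatives, at -0.18 to -0.15. Plk1 lies on chromosome 7 at 122159439 to 122169873, and exons of the gene model Gm44985 on the opposite strand cover 7.09% of its exon bases.

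Aurka, the Aurora kinase of spindle poles that activates Plk1, lies on chromosome 2 at 172356190 to 172370535. It stood at 107, 111 and 107 CPM in controls and 101, 96.8 and 99.7 CPM with H2O2, again with no overlap. The log2 fold change was -0.13 (SE 0.0353; adjusted p = 0.012 by edgeR), and Aurka did not pass without control replicate 2 (0.086) or H2O2 replicate 2 (0.062), over a range of 0.0043 to 0.086. Aurkb, the Aurora kinase of the passenger complex, stood at 0.04, and its partners Cdca8 (borealin) and Incenp at 0.01 and -0.03; none of these 3 passed. Birc5 (survivin), the remaining subunit, rose by 0.11 (adjusted p = 0.025 by edgeR). Birc5 did not pass without control replicate 2 (0.19) or 3 (0.087) or without H2O2 replicate 1 (0.082), over a range of 0.0050 to 0.19.

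Of the 4 genes of Cdk1 and its cyclins, 1 rose and 0 fell by edgeR (1 fell at an unadjusted p under 0.05, and 0 by DESeq2 or limma-voom). The 1 rise is 25% of this short list, where 9.70% of all genes tested rose and 10.8% fell. Cdk1, the kinase that drives entry into mitosis, stood at 257, 267 and 262 CPM in controls and 252, 256 and 262 CPM with H2O2. The groups overlap, and the log2 fold change of -0.03 (SE 0.0294) did not pass (adjusted p = 0.51 by edgeR). Cyclin B1 (Ccnb1) stood at 195, 200.3 and 203 CPM in controls and 188, 184 and 197 CPM with H2O2. H2O2 replicate 3 lies within the controls, and the value of -0.07 (SE 0.0321) did not pass (adjusted p = 0.12 by edgeR). Without H2O2 replicate 3 it passed, at -0.10 (adjusted p = 0.025 by edgeR), over a range of 0.025 to 0.40. Cyclin B2 (Ccnb2) stood at 0.06 and did not pass. Cyclin A2 (Ccna2), which acts in S phase and G2, rose by 0.10 (adjusted p = 0.017 by edgeR), although not without control replicate 2 (0.084) or 3 (0.068), over a range of 0.0045 to 0.084. Exons of Exosc9 on the opposite strand cover 12.5% of its exon bases.

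**Figure D3:**
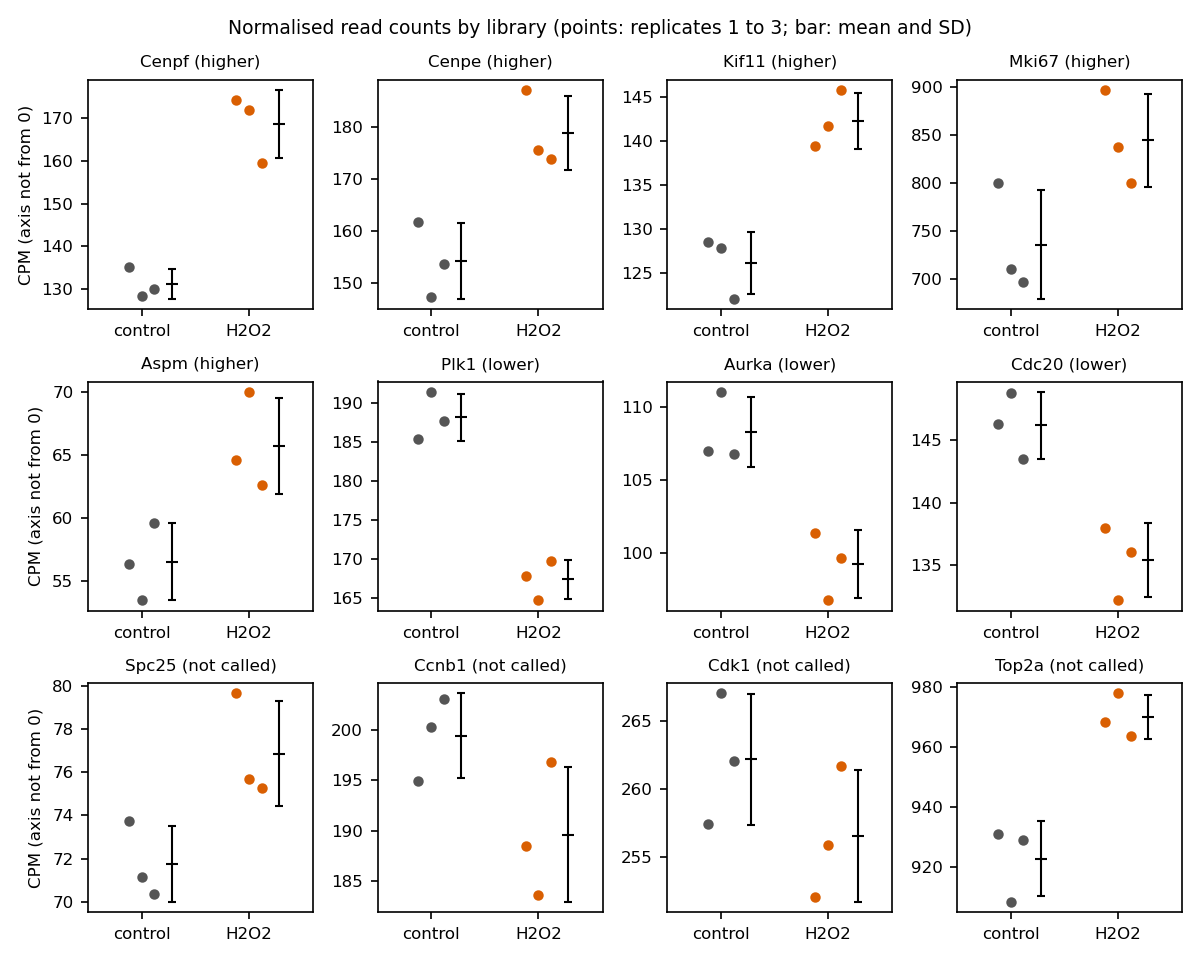
Normalised read counts (CPM, vertical axes not from 0) of 12 members in each library, with control in grey, H2O2 in orange, points for replicates 1 to 3 and a bar for mean and SD. Cenpf, Cenpe, Kif11, Aspm, Plk1, Aurka, Cdc20, Spc25 and Top2a show no overlap between groups, and in Mki67 control replicate 1 lies level with H2O2 replicate 3.

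Spindle motors and spindle proteins rose in 4 of 9 cases and fell in 0 by edgeR (0 also at an unadjusted p under 0.05, by DESeq2 and by limma-voom), with a median of 0.08. The rises are 44.4% of the list, where 9.70% of all genes tested rose and 10.8% fell. Kif11, the motor that pushes spindle poles apart, stood at 129, 128 and 122 CPM in controls and 139, 142 and 146 CPM with H2O2. The groups are separate, and the log2 fold change was 0.17 (SE 0.0337; adjusted p = 4.5e-04 by edgeR). Kif11 lies on chromosome 19 at 37376403 to 37421859. Aspm, a spindle pole protein needed for the division of neural progenitors, lies on chromosome 1 at 139454772 to 139494091. It stood at 56.4, 53.5 and 59.6 CPM in controls and 64.6, 70.0 and 62.6 CPM with H2O2. The groups do not overlap, though H2O2 replicate 3 is close to control replicate 3, and the log2 fold change was 0.22 (SE 0.0466; adjusted p = 0.0011 by edgeR).

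Kif20b, a motor of late mitosis, rose by 0.20 (SE 0.0430; adjusted p = 0.0015 by edgeR), and Kif15, which supports Kif11, by 0.18 (adjusted p = 0.011). Kif15 did not pass without control replicate 3 (0.11) or H2O2 replicate 1 (0.053), over a range of 0.0012 to 0.11. Its relative Kif20a, a motor of cytokinesis, stood at -0.05 and did not pass, and exons of Cdc23 on the opposite strand cover 29.3% of its exon bases. The central spindle proteins Kif23 (0.00), Kif4 (0.08) and Prc1 (0.08) and the Aurka activator Tpx2 (0.01) did not pass. Opposite-strand exons of Pdzd11 cover 15.1% of the exon bases of Kif4, and those of Rccd1 cover 11.1% of Prc1's. Prc1, which bundles the midzone microtubules, had the most reads per kilobase of this group. It stood at 238, 235 and 236 CPM in controls and 249, 245 and 253 CPM with H2O2. All 3 H2O2 libraries were above all controls, its adjusted p was 0.058 by edgeR, and it passed under 6 of 16 alternatives, over a range of 0.028 to 0.17.

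Genes of chromosome structure rose in 2 of 5 cases and fell in 0 by edgeR (0 also at an unadjusted p under 0.05, by DESeq2 and by limma-voom). The rises are 40.0% of the list, where 9.70% of all genes tested rose and 10.8% fell. Mki67, on chromosome 7 at 135689784 to 135716361, encodes the Ki-67 antigen that coats mitotic chromosomes. It stood at 800.6, 710.3 and 696 CPM in controls and 897, 837 and 800.1 CPM with H2O2. Control replicate 1 lies just above H2O2 replicate 3, so the groups overlap. From 736 ± 56.5 to 845 ± 48.7 CPM (SD, n = 3 each), the log2 fold change was 0.20 (SE 0.0403; adjusted p = 6.9e-04 by edgeR), whereas by DESeq2 it missed the threshold (adjusted p = 0.058). Over its 16 alternatives the adjusted p was 1.8e-11 to 0.058. Without control replicate 1 the log2 fold change was 0.27.

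Top2a, topoisomerase II alpha, had the most reads per kilobase of all 44 genes. It stood at 931, 908 and 929 CPM in controls and 968, 978 and 964 CPM with H2O2, with no overlap. Its log2 fold change of 0.07 (SE 0.0262) had an adjusted p of 0.051 by edgeR and passed under 9 of 16 alternatives, over a range of 0.015 to 0.21. The condensin subunit Smc2 rose by 0.11 (adjusted p = 0.016 by edgeR), but not without control replicate 2 (0.087) or 3 (0.14) or without H2O2 replicate 1 (0.097), over a range of 0.0013 to 0.14. Smc4, its partner in the same ring, stood at 0.05 and passed only without H2O2 replicate 2 (0.09, adjusted p = 0.027 by edgeR; range 0.027 to 0.65), and the condensin I subunit Ncapg stood at 0.04. Of the 2 cytokinesis genes, Ect2, which activates RhoA at the cleavage furrow, rose by 0.15 (adjusted p = 0.012 by edgeR), though not without control replicate 1 (0.10, adjusted p = 0.089; range 0.0013 to 0.089). Anln (anillin), the scaffold of the contractile ring, stood at 182, 187 and 185 CPM in controls and 192, 189 and 189 CPM with H2O2. These libraries do not overlap, and its value of 0.04 did not pass.

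Ratios of 2 members within a library do not depend on the scaling between libraries. The log2 ratio of Cenpf to Plk1 counts was -0.46, -0.58 and -0.53 in control replicates 1 to 3 and 0.06, 0.06 and -0.09 in H2O2 replicates 1 to 3. Every H2O2 library was above every control, and the means differed by 0.53. The ratio of Cenpe to Aurka was 0.51 ± 0.0959 in controls and 0.85 ± 0.0416 with H2O2, and that of Mki67 to Cdc20 was 2.33 ± 0.108 and 2.64 ± 0.0752 (SD, n = 3 each). These members were picked after their values were seen, so the ratios are a description.

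The 5 members with the longest annotated coding sequences were Mki67 (9531 bases), Aspm (9366), Cenpf (8991), Cenpe (7413) and Kif20b (5322), and these were also the 5 largest log2 fold changes. All 5 rose. Of the 532 genes tested with a coding sequence of 5000 bases or more, 8.84% rose and 15.0% fell, with a median of -0.01. The 3 members that fell have coding sequences of 1251 (Aurka), 1497 (Cdc20) and 1809 bases (Plk1). Across the 44 members, Pearson's r of log2 fold change with log2 coding length was 0.38 and Spearman's rho 0.35, and over 12100 genes tested r was -0.16. Across the 162 companion genes it was -0.10 (rho -0.10). Member medians did not climb steadily with coding length. They were 0.10 below 1000 bases, 0.03 from 1000, 0.01 from 2000, 0.08 from 3000 and 0.21 from 5000 bases. With GC content of the longest transcript, r was -0.51 and rho -0.50 across members, and r was -0.003 over 12815 genes. Across the 162 companion genes described below, r with GC content was -0.31 and rho -0.33, so the negative relation was also seen there. These are correlations across genes that share the same 6 libraries, and genes are not independent replicates. After a correction of each library for transcript length and GC, the log2 fold change of Cenpf was 0.34, that of Mki67 0.18 and that of Plk1 -0.18. After that correction, r across members was 0.38 with log2 coding length and -0.46 with GC content (rho -0.41). With log2 transcript length, r was 0.46 before the correction and 0.51 after it. Across the companion genes, r after the correction was -0.003 with coding length, -0.26 with GC content and 0.25 with transcript length.

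**Figure D4:**
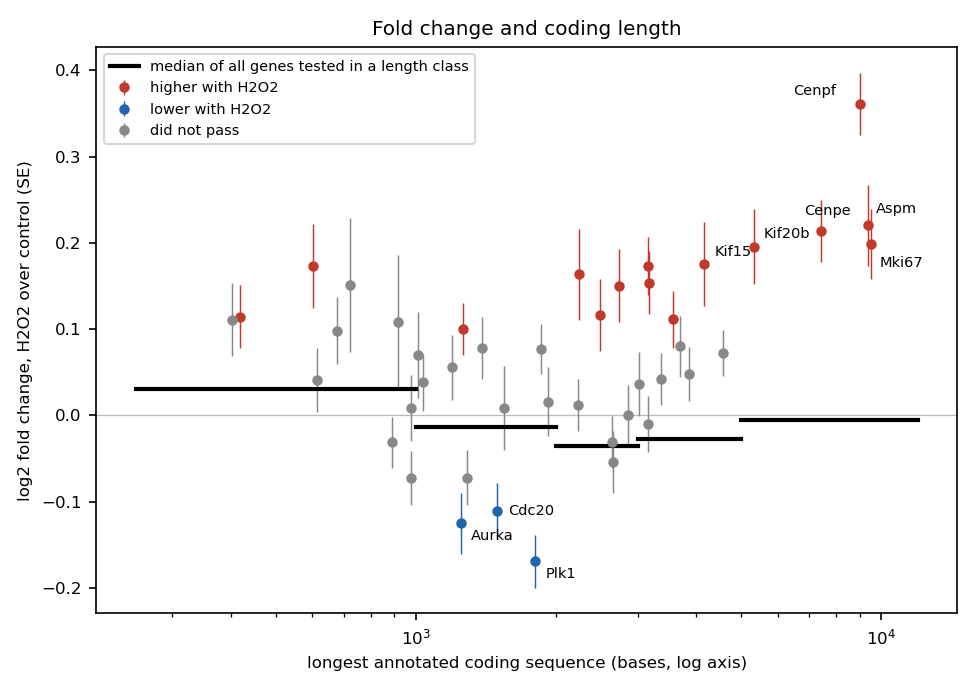
Log2 fold change (vertical axis, with SE) against the longest annotated coding sequence in bases (log axis) for the 44 genes, red for rises, blue for falls and grey for genes that did not pass. Black lines are medians of all genes tested in 5 length classes, which lie between -0.04 and 0.03, and the 5 longest members lie above 0.19.

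Other genes of the same machinery were taken from 7 lists holding 162 genes, all tested, of which 25 (15.4%) rose and 12 (7.41%) fell, beside 9.70% and 10.8% of all genes tested. Among 26 other centromere and kinetochore genes, 8 rose and 0 fell by edgeR (1 fell at an unadjusted p under 0.05, and 0 by DESeq2 or limma-voom), with a median of 0.08. Cenpb, which binds a centromeric repeat, rose from 334 ± 2.01 to 391 ± 18.1 CPM (log2 fold change 0.23). Casc5 (Knl1), the kinetochore scaffold for Bub1, rose from 40.3 ± 0.867 to 48.7 ± 0.386 CPM (0.27; SD, n = 3 each). In the list of the anaphase-promoting complex and checkpoint, 4 of 24 (16.7%) rose and 2 (8.33%, near the share over all genes) fell, the falls being the subunits Anapc2 (-0.16) and Anapc7 (-0.12). The 2 ubiquitin-conjugating enzymes of that complex had the smallest p: Ube2s rose by 0.21 and Ube2c by 0.15. The 4 rises of that list became 2 by DESeq2 and also when control replicate 2 or H2O2 replicate 1 was left out. Its 2 falls became 1 by DESeq2, after the correction for length and GC, and when control replicate 1 or 3 or H2O2 replicate 1 was left out. Among 20 genes of cohesin, condensin and separase, 4 rose and 1 fell, including the cohesin regulator Pds5b (0.16) and the condensin II subunit Ncapg2 (0.15), both higher. The fall was that of the condensin I subunit Ncapd2 (-0.11), which was not called after the correction for length and GC.

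Of 30 other spindle, centrosome and cytokinesis genes, 6 (20.0%) rose and 1 (3.33%) fell, led by the microtubule-associated genes Ckap2l (0.18) and Hmmr (0.17). Over all genes tested 9.70% rose and 10.8% fell. The fall was that of the chromosome motor Kif22 (-0.11), and it was not called when control replicate 2 or 3 or H2O2 replicate 1 or 2 was left out, nor after the correction for length and GC. The 6 rises became 3 when control replicate 1 or H2O2 replicate 1 was left out, and 2 genes fell when H2O2 replicate 3 was left out. Of 25 regulators of mitotic entry and its transcription, 1 rose and 0 fell by edgeR (1 fell at an unadjusted p under 0.05, and 0 by DESeq2 or limma-voom). The gene that rose was the phosphatase Cdc25b (0.15), which activates Cdk1, and the transcription factor Foxm1, named after its value was seen, stood at 0.02. With upper-quartile factors 6 of these regulators rose. The count was 3 after the correction for length and GC and when control replicate 1 or H2O2 replicate 3 was left out, and 0 when control replicate 3 was left out. After that correction, and in the fit lacking H2O2 replicate 3, 1 regulator fell. Among 9 Cdk inhibitors and G-type cyclins, Cdkn2c rose by 0.13 and 0 fell by edgeR (0 also at an unadjusted p under 0.05, by DESeq2 and by limma-voom). The 1 rise is 11.1% of the list, near the share over all genes tested. That rise was not called without control replicate 1 or 3 or without H2O2 replicate 1. Of 28 DNA replication genes, 1 (3.57%) rose (the thymidylate synthase gene Tyms, 0.20) and 8 (28.6%) fell, with a median of -0.03. The helicase subunits Mcm3 and Mcm2 fell by 0.19 each on the log2 scale. In the fit lacking control replicate 2, 5 replication genes fell, and in the fit lacking H2O2 replicate 1, 2 rose. After the correction for length and GC 3 replication genes rose, and with upper-quartile factors, with library size alone or with the replicate block 2 rose. Whether the lists differ from each other was not tested.

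**Figure D5:**
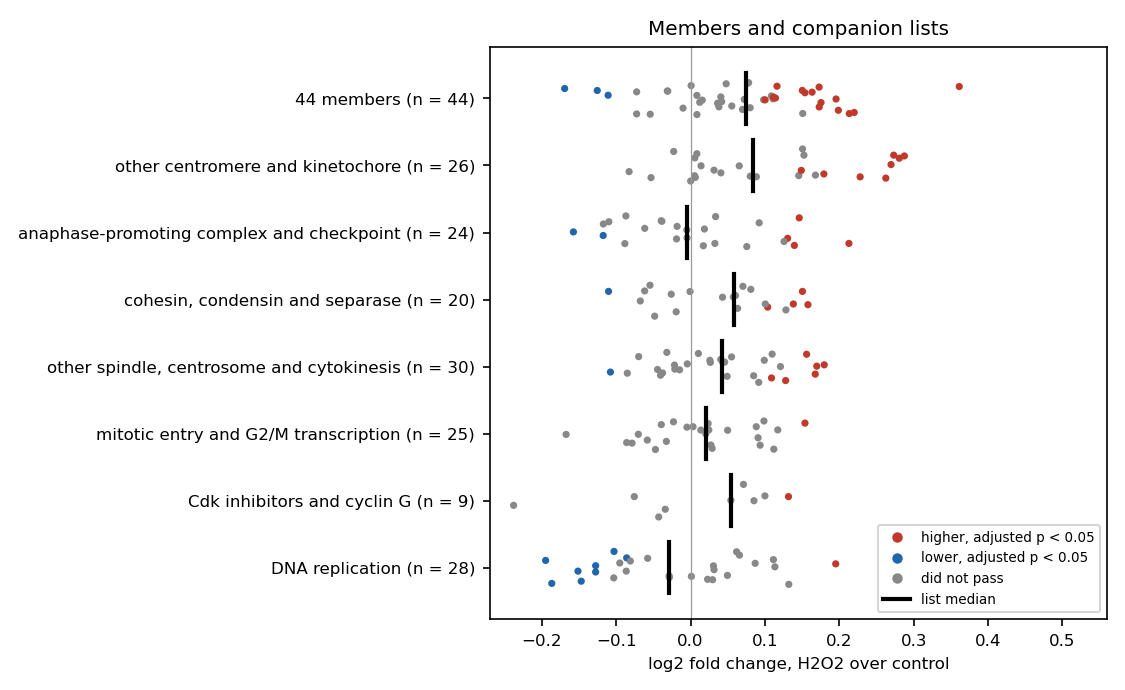
Log2 fold change (horizontal axis) of every gene of the 44 members and the 7 companion lists, jittered vertically, with red for rises, blue for falls, grey for genes that did not pass and a black line for each list's median. The medians run from -0.03 (DNA replication) to 0.08 (other centromere and kinetochore genes).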

How the data were processed

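RNA was measured by mRNA sequencing in 3 control and 3 H2O2 libraries, each made from 100 ng of total RNA per the labels. Each library has a table of whole-number read counts by gene symbol, as the authors deposited it. The submitters' processing notes name build mm10 and the tools STAR 2.5.3, HTSeq, cutadapt, bcl2fastq 2.17.1.14 and DESeq2; the annotation and strand setting are not given in the sources used here, so whether reads of overlapping genes on opposite strands were counted apart is unknown. HTSeq's summary classes (19.1% to 20.0% of all counted reads) entered neither library sizes nor tests. Genes were filtered with filterByExpr and tested with edgeR 4.0.16 (limma 3.58.1, R 4.3.3), TMM factors, treatment as the only term and a Benjamini-Hochberg threshold of 0.05. The standard error (SE) was derived from the same fit, as the absolute log2 fold change over the square root of the test's F statistic. Alternatives covered other scaling factors, DESeq2 1.42.0, limma-voom, looser and stricter filters, the replicate number as a block, a loess offset (span 0.3) for transcript length and GC content, and fits without each library. Lengths came from GENCODE M21 and were found for 99.2% of tested genes.

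The members and lists were chosen with earlier results of these data known. Values per library are given for the 5 rises and the falls with the smallest p, the member of each role with the most reads per kilobase, and Mki67, Cdk1 and Ccnb1; of each companion list the passing genes with the 2 smallest p are named, and other companions were named after their values were seen. The script functions were tested on simulated data.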

Additional observations from a re-analysis of the deposited data

How the results depend on the processing

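Over the fits that left out 1 library, 9 to 17 members rose and 1 to 4 fell, 891 to 1178 genes rose and 926 to 1313 fell in all. The same fits gave 19 to 24 companion genes higher and 8 to 17 lower, and a member median of 0.06 to 0.09. No member reversed past the threshold under the 16 alternatives. With upper-quartile factors 19 members rose, and 1455 genes rose and 1190 fell in all. The median of all genes stayed between -0.01 and 0.01. DESeq2's test called 13 members higher and 3 lower, and 1018 genes higher and 1026 lower in all. After the correction for length and GC 16 members rose and 3 fell, and 1155 genes rose and 1409 fell in all.

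Correlations of same-numbered libraries' deviations from their group means were 0.0022, 0.030 and -0.026. Those of differently numbered libraries ran from -0.037 to 0.033. With so few libraries these values cannot show whether same-numbered libraries were handled together. With the replicate block 15 members rose and 3 fell, and 1294 genes rose and 1444 fell in all; it changed 0 member calls. With the block and the correction for length and GC together, 18 members rose and 3 fell, and 1209 genes rose and 1494 fell in all.

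The least abundant members, Cenpk and Cenph, have the largest SE (0.0766 and 0.0778).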
